A study of Mus musculus with 10 samples.

Results

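Rif1 and the genes that keep telomeres were followed through 8 mRNA libraries of mouse embryonic stem (ES) cells, 5 of them from cells depleted of Pontin, Oct4 or the long noncoding RNA linc1253 and 3 from controls. The 10 genes were listed by symbol for their roles: Rif1, the shelterin proteins Terf1 and Terf2, the telomerase proteins Tert, Dkc1, Nhp2, Gar1 and Nop10, and the zinc finger genes Zscan4c and Zscan4f. All 10 were found by their Ensembl identifiers among the 22713 genes of the deposited tables.

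The WT library came from untreated Pontinf/f; CreER ES cells, derived from blastocysts, in which both Pontin alleles are floxed and a tamoxifen-activated Cre is present. The OHT 3D and OHT 4D libraries came from the same line 3 and 4 days after 4-hydroxy tamoxifen (OHT). The WT cells therefore carry the floxed alleles and CreER as well, but were not given OHT, and the promoter that drives CreER is not given in the sources used here. The Tc 2D library came from ZHBTc4 ES cells 2 days after tetracycline (Tc). In ZHBTc4 cells both endogenous Oct4 alleles are disrupted and Oct4 comes from a transgene that Tc switches off. The study's control for Tc 2D was WT of the other line, so that Oct4 depletion and cell line cannot be told apart in that comparison. The 4 shRNA libraries came from ZHBTc4 cells 4 days after infection, 2 with pLKO control lentivirus and 2 with pLKO shlinc1253 lentivirus, and nothing says that they were separate cultures, so their p-values measure the spread between these libraries. ChIP-seq was made from ZHBTc4 cells with 1 Pontin and 1 GFP library.

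Telomeres are bound by shelterin, whose Terf1 and Terf2 subunits read the double-stranded repeat, and are extended by telomerase. In telomerase, the reverse transcriptase Tert works with an RNA that is held by Dkc1, Nhp2, Gar1 and Nop10, and the same 4 proteins also serve the H/ACA RNAs that direct pseudouridylation of ribosomal RNA. Rif1 was first known as a telomere protein of yeast. In mammalian cells it sets replication timing and steers the repair of broken DNA, and in ES cells it restrains Zscan4, whose bursts accompany telomere lengthening by recombination.

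Reads on genes ranged from 17187595 to 37951742 per library. Levels are CPM, reads of a gene scaled to library size, as the authors deposited them, and the 4 shRNA libraries were normalized apart from the other 4. Ruvbl1, which encodes Pontin, was at 198 CPM in WT, 33.3 in OHT 3D and 50.9 in OHT 4D. It was at 85.0 CPM in Tc 2D, which is not labelled as depleted of Pontin. Pou5f1, which encodes Oct4, was at 301 CPM in WT and 21.1 in Tc 2D. Both depleted genes were thus lower in the libraries labelled as depleted of them. A log2-fold-change is the difference of log2(CPM + 1), and with 1 library a group an absolute value above 0.58 was counted as past the call, the threshold of the study, with no replicate check. The intervals given are 95% intervals of counting error only.

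Rif1 (ENSMUSG00000036202, NCBIM37 chr2:51928357-51977903, plus strand, 10527 exonic bases) was at 331 CPM in WT, 432 in OHT 3D, 191 in OHT 4D and 240 in Tc 2D. It was at 335 and 462 CPM in the control shRNA libraries and at 344 and 427 CPM in the linc1253 shRNA libraries. Rif1 was thus highest in OHT 3D and lowest in OHT 4D among the first 4 libraries, while the shRNA groups overlapped. The log2-fold-change against WT was 0.39 (0.34 to 0.43) in OHT 3D and -0.79 (-0.84 to -0.73) in OHT 4D. Against OHT 3D, the OHT 4D library was lower by a log2-fold-change of -1.17 (-1.22 to -1.12), a ratio of 0.44. The 2 control shRNA libraries, which share line and treatment, themselves differed by 0.46 in log2 for Rif1. Across that pair 3.1% of genes, and across the linc1253 pair 2.6%, differed by more than 0.58, and 0 of the 10 did. For Rif1 the 2 linc1253 libraries differed by 0.31 in log2. The OHT 3D difference of 0.39 lies between 0.31 and 0.46, and the OHT 4D difference is larger than both. Both pairs are of ZHBTc4 cells, so neither measures the spread of the Pontin line.

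**Figure D1:**
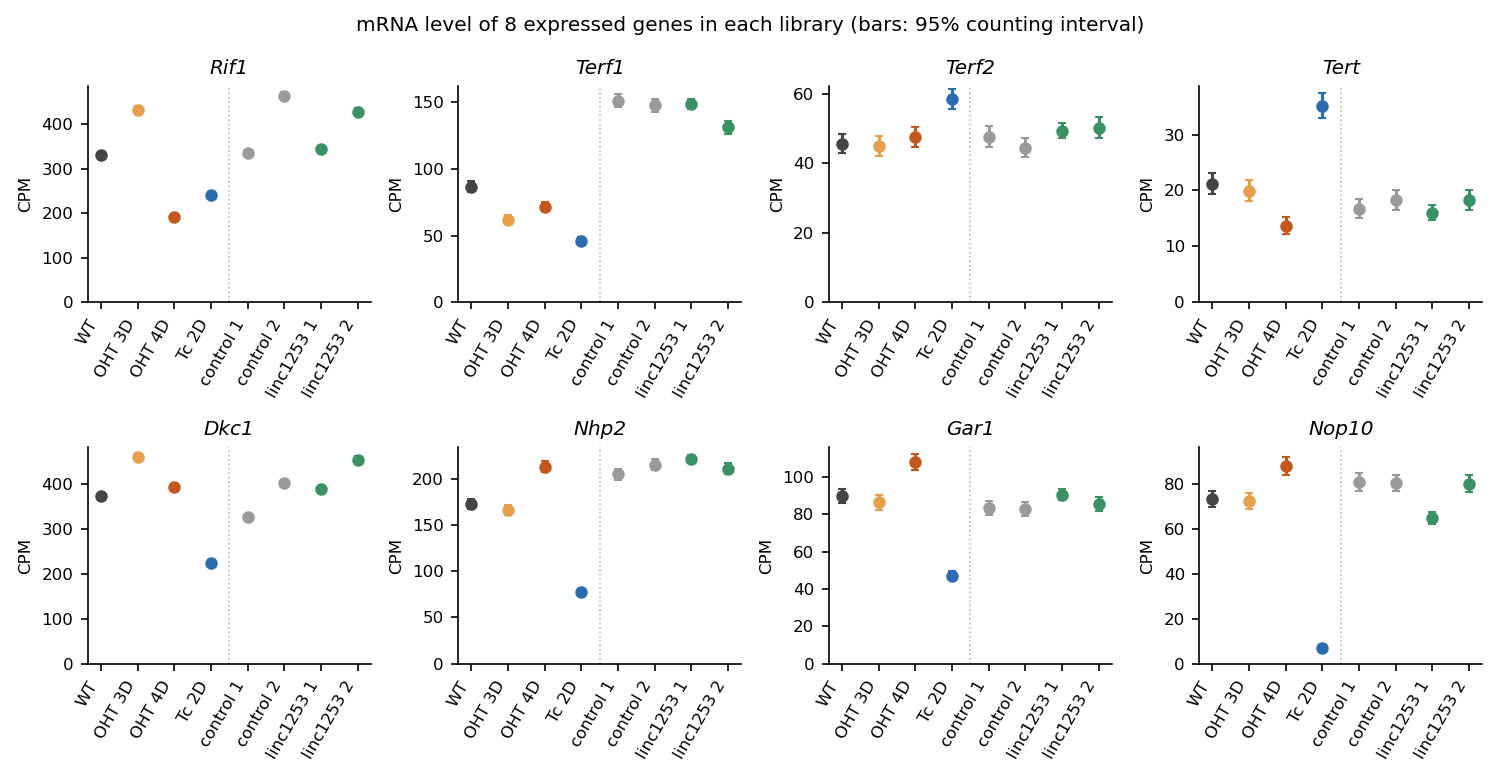
Level of the 8 genes expressed in all libraries, with the 8 mRNA libraries along the x axis and CPM from 0 on the y axis. Each point is 1 library, the bar is its 95% counting interval, and a dotted line parts the separately normalized tables. Nop10 stands low in Tc 2D, with 7.19 CPM against 73.4 in WT, and Rif1 is lowest in OHT 4D, with 191 CPM.

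Rif1 is long in exonic bases, and in OHT 4D long genes as a class were lower than short genes. Exonic length is that of the merged exons annotated for a gene. Over the 1105 expressed genes of 8001 to 12000 exonic bases the median log2-fold-change was -0.31 in OHT 4D, against 0.25 over genes of up to 1000 bases. Among those 1105 genes 25.4% were past the call downward, against 8.89% of all genes tested. Measured from the median of genes of its length, Rif1 was at -0.48 in OHT 4D and at 0.31 in OHT 3D, neither past 0.58. Between the control shRNA libraries Rif1 differed by 0.46 before centring, and genes of its length had a median of 0.08. Between the linc1253 libraries these values were 0.31 and 0.06. Tert alone of the 10 was past the call downward in OHT 4D when measured from genes of like length, beside 6.19% of all genes. Between OHT 4D and OHT 3D Rif1 was still at -0.83 by that measure. The part of exonic length in the Rif1 values was not tested.

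**Figure D2:**
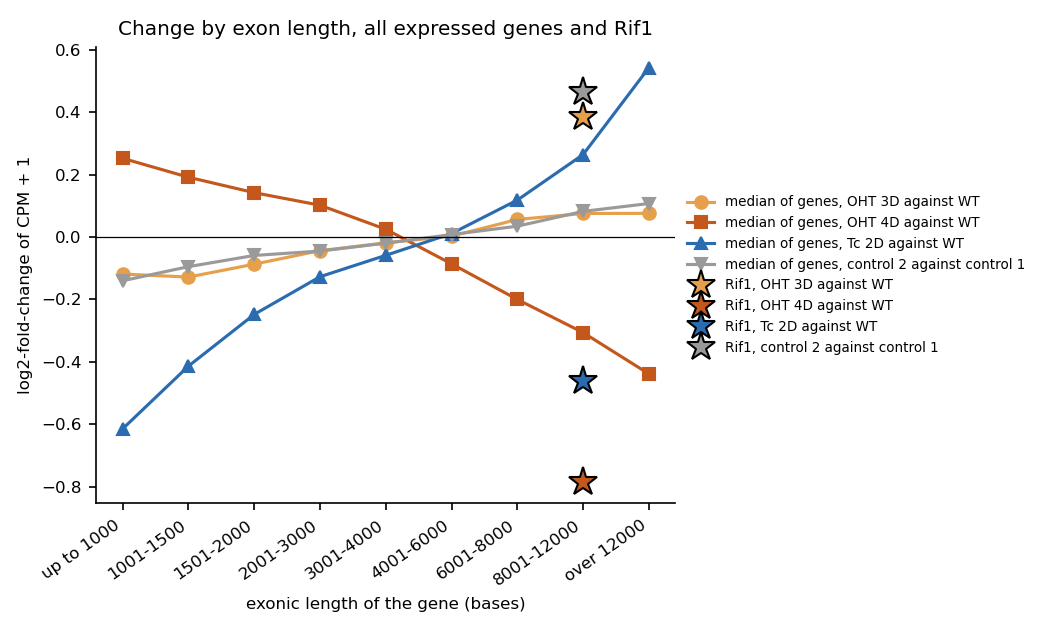
Median log2-fold-change of expressed genes by exonic length (x axis, bases in bins) for each comparison (y axis, log2(CPM + 1) difference), with Rif1 as a star in its bin. The pair of control shRNA libraries is drawn for comparison. In OHT 4D the medians fall from 0.25 in genes up to 1000 bases to -0.44 in genes over 12000 bases, and in Tc 2D they run the other way, from -0.61 to 0.54.

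In the 250 bases before the annotated start, the GC box GGGCGG, searched on both strands, is present in 39.6% of 22367 promoters. Motifs are described here for some of the 10 genes and not for all. The Tert window (NCBIM37 chr13:73764199-73764448, plus strand) holds 2 GC boxes and is printed below. It was chosen since Tert had 108 Pontin reads against 15 GFP reads between 2500 bases before and 500 after its start. Only 4 of these Pontin reads and 2 of the GFP reads lay in the 250 bases printed. Scaled by library size, Pontin was not above GFP in that stretch. The capitals mark GC boxes on either strand.
Tert: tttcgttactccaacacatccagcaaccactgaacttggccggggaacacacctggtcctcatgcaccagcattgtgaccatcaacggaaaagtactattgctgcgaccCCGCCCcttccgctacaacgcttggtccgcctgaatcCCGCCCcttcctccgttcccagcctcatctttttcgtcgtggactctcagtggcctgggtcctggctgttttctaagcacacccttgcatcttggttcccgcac

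The octamer ATGCAAAT, the sequence that Oct proteins read, lies within 2500 bases before the start of 13.6% of promoters on either strand. Zscan4f has a copy at position -343 on the plus strand. The Terf1 copy is on the minus strand at position -854 from the start, and is shown in capitals with its surroundings (NCBIM37 chr1:15794859-15794919, plus strand).
Terf1: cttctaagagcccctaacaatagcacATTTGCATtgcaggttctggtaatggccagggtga

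After Pontin depletion few of the 10 genes moved past the call. Zscan4c and Zscan4f were below the filter of 1 CPM in all 4 libraries, which left 8 genes. In OHT 3D 0 of the 8 were past the call, where 11.9% of the 13449 genes tested were. In OHT 4D 2 of 8 were past it, Rif1 and Tert, both downward, beside 15.4% of all genes. Between OHT 4D and OHT 3D 1 of 8 was past it, Rif1, downward, beside 14.3%. None of these counts was tested against the background.

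Tert, the reverse transcriptase of telomerase (NCBIM37 chr13:73764449-73786489, plus strand), was at 21.2 CPM in WT, 19.9 in OHT 3D, 13.7 in OHT 4D and 35.2 in Tc 2D. The shRNA libraries held 16.7 and 18.3 CPM for control and 16.0 and 18.3 CPM for linc1253. Tert was lowest in OHT 4D and highest in Tc 2D of all 8 libraries, although the 2 tables are on separate scales. The log2-fold-change was -0.09 (-0.27 to 0.09) in OHT 3D and -0.60 (-0.79 to -0.40) in OHT 4D, so that the interval in OHT 4D includes the call threshold. Per kilobase of exon Tert was the lowest of the 8 expressed genes in WT, with 6.18 CPM per kb beside 151 for Nhp2, but not in Tc 2D, where Nop10 was lower.

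The genes of the 4 proteins that hold the telomerase RNA stayed within the call at both times. Dkc1, the pseudouridine synthase whose human gene is mutated in dyskeratosis congenita (NCBIM37 chrX:72341193-72355116, plus strand), was at 372 CPM in WT, 459 in OHT 3D and 392 in OHT 4D. Nhp2 (chr11:51433237-51437216, plus strand) was at 173, 166 and 213 CPM in the same 3 libraries. Gar1 (chr3:129527830-129534314, minus strand) was at 89.7, 86.3 and 108 CPM. Dkc1 was thus highest in OHT 3D, and Nhp2 and Gar1 were highest in OHT 4D. Nop10, the smallest protein of the complex (chr2:112102083-112103426, plus strand), was at 73.4, 72.3 and 88.0 CPM. In OHT 4D the log2-fold-changes of these 4 genes ran from 0.08 for Dkc1 to 0.30 for Nhp2. Against genes of like length they ran from 0.067 for Nop10 to 0.16 for Dkc1, with Nhp2 at 0.11.

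Of the shelterin pair, Terf1 varied more than Terf2. Terf1, which counts and limits telomere repeats (NCBIM37 chr1:15795739-15833551, plus strand), was at 86.6 CPM in WT, 61.7 in OHT 3D and 71.7 in OHT 4D. Its log2-fold-change was -0.48 (-0.58 to -0.38) in OHT 3D and -0.27 (-0.36 to -0.18) in OHT 4D. Terf1 was lower than WT at both times and within the call at both. Terf2, which shields chromosome ends from the damage response (chr8:109593300-109620447, minus strand), was at 45.6, 45.0 and 47.4 CPM, with log2-fold-changes of -0.02 and 0.05. Of 7 expressed shelterin genes 0 were past the call at either time, beside 11.9% and 15.4% of all genes.

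Markers of fibroblasts were higher in both OHT libraries. The study kept ES cells on mouse embryonic fibroblast feeders or without them, and which of these held for each library was not stated. Of 10 fibroblast markers 7 were expressed, and all 7 were past the call upward in OHT 3D and in OHT 4D, beside 6.01% and 6.48% of all genes, with medians of 2.48 and 2.69. Of the first 4 libraries, Col3a1 and Postn were above 1 CPM in the OHT libraries alone, so the filter itself favoured their upward calls. The summed level over the 10 fibroblast markers, which needs no filter, was 24.1 CPM in WT, 208 in OHT 3D and 265 in OHT 4D. Lum and Fap had no read in WT and OHT 3D. Of 9 expressed markers of primitive endoderm 4 and 8 were past the call upward in OHT 3D and OHT 4D. Among these 9, Sox17 met the filter through OHT 4D alone. The 10 pluripotency markers were all within the call at both times. Of 9 expressed trophectoderm markers 5 and 6 were past the call upward, and 2 and 1 downward. Their summed level was 248 CPM in WT, 247 in OHT 3D and 430 in OHT 4D, of which Tfap2c, past the call downward at both times, made up 192, 114 and 127 CPM. The part of these cells in the values of Rif1 and Tert was not tested. In such bulk libraries, fewer cells of a type and less RNA per cell cannot be told apart.

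In Tc 2D, 6 of the 8 genes were past the call, 1 upward and 5 downward. Tert was higher, while Terf1, Dkc1, Nhp2, Gar1 and Nop10 were lower, and Rif1 and Terf2 were within the call. This library differed widely from WT as a whole, with 49.8% of all genes past the call, 23.9% upward and 25.8% downward. Of the 10 pluripotency markers 9 were past the call downward, and of 9 expressed trophectoderm markers 8 were past it upward, with a summed level of 543 CPM against 248 in WT. Tfap2c went the other way, at 85.5 CPM against 192, and so made up most of the WT sum. Of the 7 expressed fibroblast markers 4 were past the call downward and 1 upward, with a median of -0.61. That 1 was Pdgfrb, at 25.1 CPM against 0.72, which made up most of a sum of 32.8 CPM. Of 9 expressed primitive endoderm markers 4 were past the call upward and 1 downward. The part of such cells in the values below was not tested.

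Nop10 was the furthest from WT, at 7.19 CPM (204 reads) against 73.4 CPM (1642 reads), a log2-fold-change of -3.18 (-3.37 to -3.00). Its level in the other 7 libraries lay between 64.7 and 88.0 CPM, so that Tc 2D stood alone. Nhp2 was at 77.2 CPM in Tc 2D, with a log2-fold-change of -1.15 (-1.23 to -1.08). Gar1 was at 47.1 CPM, with -0.92 (-1.01 to -0.82). Dkc1 was at 224 CPM, with -0.73 (-0.78 to -0.68). Measured from genes of like length, the values were -2.77 for Nop10, -0.74 for Nhp2, -0.67 for Gar1 and -0.74 for Dkc1, all past the call. The mRNAs of all 4 RNA-holding proteins of telomerase were therefore lower, and Nop10, the lowest per kilobase of the 4 in Tc 2D with 6.48 CPM per kb, had been above Gar1 and Rif1 in WT, with 66.2 CPM per kb beside 52.3 and 31.4. Exons of Dkc1 overlap those of Mpp1 on the other strand over 45 bases, and exons of Nhp2 overlap those of Rmnd5b over 44 bases, and the library kit does not mark strand.

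Dkc1 lies on the X chromosome, and X-linked genes were lower as a class in Tc 2D. The median log2-fold-change was -0.39 over 466 X-linked genes and -0.05 over 12965 autosomal genes. Against the ZHBTc4 control libraries the medians were -0.32 and -0.16, and Dkc1 was at -0.69. The part of X linkage in the Dkc1 value was not tested.

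Tert ran opposite to its partners, with a log2-fold-change of 0.70 (0.55 to 0.86) in Tc 2D. Terf1 was at 46.0 CPM, with -0.90, a ratio of 0.53, and Terf2 was at 58.4 CPM, with 0.35 (0.24 to 0.46). Rif1 was at -0.46 (-0.51 to -0.41). In Tc 2D, unlike OHT 4D, genes of the length of Rif1 were higher as a class, with a median of 0.26, and measured from that median Rif1 was at -0.72, past the call. Counted this way, 7 of the 8 genes were past the call, 1 upward and 6 downward, beside 24.7% and 22.7% of all genes.

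**Figure D3:**
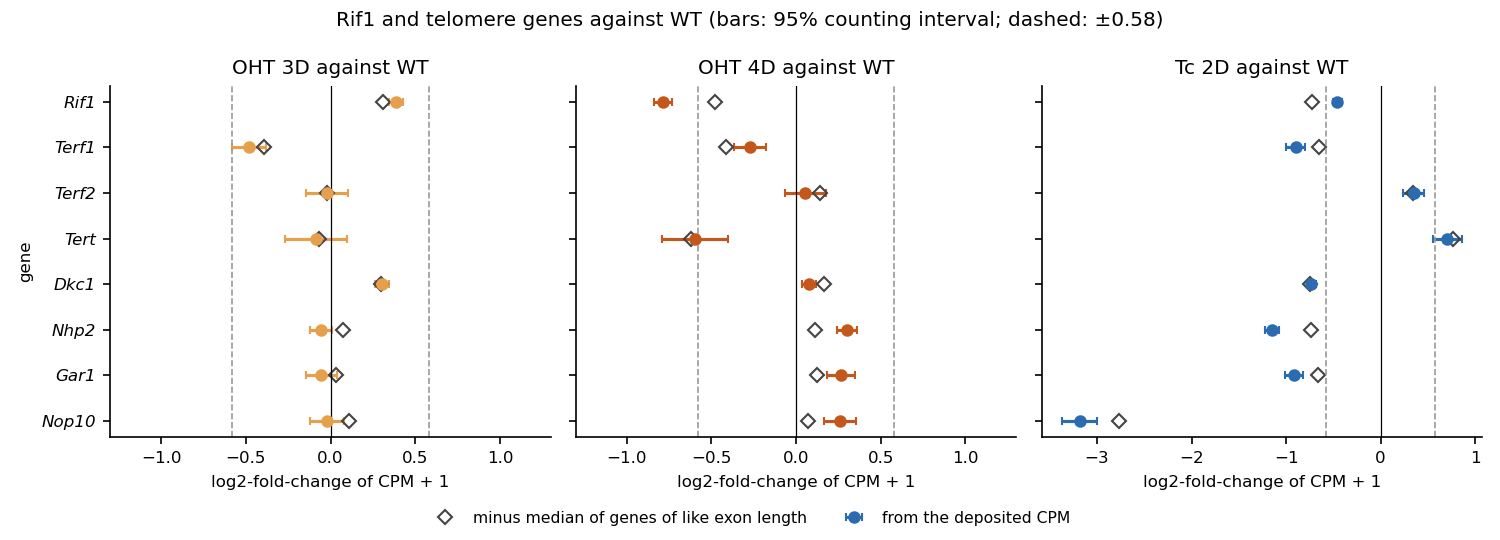
Log2-fold-change on log2(CPM + 1) of the 8 expressed genes in each comparison, with 95% intervals of counting error as bars, the call threshold of 0.58 as lines, and the value measured from genes of like length as a second mark. Nop10 lies at -3.18 in Tc 2D and Tert at 0.70, and Rif1 moves from 0.39 in OHT 3D to -0.79 in OHT 4D.

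The ZHBTc4 control shRNA libraries are of the same line as Tc 2D, but were infected, normalized in another table and sequenced on another Illumina instrument. Set against their mean, Tc 2D was lower for Rif1 (-0.71), Terf1 (-1.68), Dkc1 (-0.69), Nhp2 (-1.43), Gar1 (-0.81) and Nop10 (-3.32), and higher for Tert (0.97), all in log2. Terf2, at 0.34, was within the call. Zscan4c and Zscan4f, with 2 and 0 reads in Tc 2D, were far lower there and are described below. On this scale 17.8% of 13984 genes were past the call upward and 30.1% downward. With all libraries put on one median-ratio scale, Rif1 was at -0.52 and Dkc1 at -0.50, within the call, and Terf1, Nhp2, Gar1, Nop10 and Tert kept their side of it. The scale matters in Tc 2D against WT too. Without the TMM factor the median of all genes moved from -0.06 to 0.24 and the share of calls that were upward from 48.1% to 68.3%, Rif1 was at -0.14, Dkc1 was at -0.41, within the call, and Terf2 was at 0.67, past it. Nop10 was at -2.92, Nhp2 at -0.83, Gar1 at -0.60 and Terf1 at -0.58 without the factor, the last 2 barely past the call, and Tert was at 1.03.

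Lists of related genes were read in the same way. Of 13 expressed genes of telomerase and its assembly, 9 were past the call downward in Tc 2D and 2 upward, beside 25.8% and 23.9% of all genes. Their median was -0.92 beside -0.06 over all genes. The list includes Tert, Dkc1, Nhp2, Gar1 and Nop10, so part of this count repeats the values above. Beside the proteins above, the assembly ATPase Ruvbl1, with 54% of its exonic 50-base windows repeated elsewhere in the genome, was at -1.21. By immunoblot and quantitative RT-PCR, the study reported no significant change of Pontin protein or mRNA when Oct4 was depleted. Pinx1, a protein that binds Tert, was at 10.8 CPM against 33.5. In OHT 4D 3 of the 13 were past the call downward, and these were Tert, Tep1 and Ruvbl1, the gene deleted, beside 8.89% of all genes. Measured from genes of like length the count was 2, beside 6.19%, with Tep1 at -0.37. Of 7 expressed shelterin genes 1, Terf1, was past the call in Tc 2D. The CST list of 5 genes held the CST complex, which fills in the C-rich strand, and the DNA polymerase alpha and primase that it uses. Of the 5, 1 was past the call at each of OHT 4D and Tc 2D, beside 15.4% and 49.8% of all genes. Both times this was the polymerase subunit Pola1, at 129 and 69.7 CPM against 197 in WT. No gene of the CST complex itself was past the call at either. Against genes of like length Pola1 was at -0.30 in OHT 4D, within the call. Pola1 is X-linked, as Dkc1 is.

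Among 13 expressed partners of Rif1 in replication and repair, 2 were past the call downward in OHT 4D, beside 8.89% of all genes. In Tc 2D 2 were past it upward and 2 downward, beside 23.9% and 25.8% of all genes. Trp53bp1, the repair protein that brings Rif1 to broken DNA, was at 65.4 CPM in WT, 60.7 in OHT 3D, 35.5 in OHT 4D and 103 in Tc 2D. Brca1, which opposes it, was at 128, 158, 81.7 and 145 CPM. Both were lowest in OHT 4D, as Rif1 was, and both are of like or greater exonic length, 14164 bases for Trp53bp1 and 8476 for Brca1. Measured from genes of like length, Trp53bp1 was at -0.42 and Brca1 at -0.34 in OHT 4D, both within the call, and Trp53bp1 was at 0.10 in Tc 2D. By that measure 1 of the 13 was past the call downward in OHT 4D, beside 6.19%, and this was Shld2, a subunit of shieldin, at -0.60, which was at -0.58 and just within the call before. Dbf4, the activator of the kinase that fires replication origins and that Rif1 opposes, was at 137 CPM in Tc 2D against 281 in WT. Rbbp8, which starts the resection of breaks, was at 59.6 CPM against 37.2.

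Of 15 expressed genes that maintain telomeres in other ways, 5 were past the call downward in OHT 4D, beside 8.89% of all genes, and 2, Tnks and Atm, when values were measured from genes of like length, beside 6.19%. Tnks was at 63.8 CPM in WT, 79.5 in OHT 3D, 19.6 in OHT 4D and 76.8 in Tc 2D. Atm, a kinase of the damage response, was at 59.5, 73.6, 27.0 and 87.8 CPM. Both were higher in OHT 3D and lower in OHT 4D than in WT, in the order that Rif1 took. Measured from genes of like length Tnks was at -1.45 and Atm at -0.81 in OHT 4D, and Atr, another such kinase, was at -0.42, within the call. In Tc 2D 1 of the 15 was past it, beside 49.8% of all genes. This was Nhp2l1, an RNA-binding relative of Nhp2, at 90.2 CPM against 196, and 53% of its windows are repeated.

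Of 11 expressed genes of H3K9 methylation and its readers, 1 was past the call in OHT 4D and 4 in Tc 2D, all downward, beside 8.89% and 25.8% of all genes. The difference from that background was not tested. Atrx, which deposits histone H3.3 at telomeres, was at 602 CPM in WT, 690 in OHT 3D, 296 in OHT 4D and 316 in Tc 2D. Against genes of like length Atrx was at -0.58 in OHT 4D, barely past the call, and at -1.47 in Tc 2D. It is X-linked too, and the part of X linkage in the Tc 2D values of Atrx and Pola1 was not tested. The heterochromatin protein Cbx1 was at 113 CPM in Tc 2D against 252, Cbx3 at 71.1 against 134, and the methyltransferase Ehmt2 at 98.7 against 172. Of 17 matched genes of the 2-cell state and Zscan4, only Dppa2 and Dppa4 were above the filter in the first 4 libraries. Both were past the call downward in Tc 2D, at 26.4 CPM against 66.3 and at 47.0 against 95.8. About as many of their 50-base windows are repeated elsewhere as not (51% and 50%), and in Tc 2D the 353 and 184 genes of the classes around that share had medians of -0.52 and -0.54, against -0.03 over 7218 genes with no repeated window. The part of repeated sequence in these values, and in those of Ruvbl1 and Nhp2l1, was not tested.

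Over all 8 libraries, Pou2f1 (which encodes Oct1), Zdbf2, Gabpb2 and Rbm41 were among the 5 genes whose levels followed Rif1 most closely. Likeness was the root mean square difference of log2(CPM + 1) centred within each table, which was 0.09 to 0.10 for these 4 and 0.42 at the median of 9956 genes. Pou2f1 was at 58.7 CPM in WT, 84.5 in OHT 3D, 32.9 in OHT 4D and 38.7 in Tc 2D. The exonic lengths of the 4 ran from 6638 to 15538 bases, beside 10527 for Rif1. Since they were ranked on these 8 libraries, the likeness is a description.

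For linc1253 knockdown, by limma with a trend on log2(CPM + 1), 0 of the 10 had a Benjamini-Hochberg adjusted p under 0.05, beside 0.0% of all 13407 genes. At an unadjusted p under 0.05, limma marked 2 of the 10, Zscan4c and Zscan4f, beside 7.45% of all genes (999). The edgeR quasi-likelihood test on the recovered reads gave 0 genes at an adjusted p under 0.05 and 1010 (7.53%) at an unadjusted one. DESeq2 gave 50 (0.373%) and 585 (4.36%), with none of the 10 genes among the 50. Both knockdown libraries lay above both controls for Terf2, Gar1, Zscan4c and Zscan4f, and below them for Nop10, beside 18.8% of all genes above and 19.2% below.

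For Rif1 the group means were 398 CPM ± 90.2 (SD, n = 2) in control and 386 CPM ± 58.2 (SD, n = 2) after knockdown. The log2-fold-change was -0.04 (SE 0.177, limma adjusted p = 0.971). The difference is within the spread of either group. Dkc1 was at 325 and 401 CPM in control and 388 and 453 CPM after knockdown, so that its groups overlapped too, with a log2-fold-change of 0.21 (SE 0.133, limma adjusted p = 0.742). The libraries share only a replicate number, and by that number Dkc1 was higher after knockdown each time. Terf1, at 151 and 148 against 148 and 131 CPM, and Tert differed by no more than 0.10 in log2.

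Nop10 was at 80.8 and 80.4 CPM in control and at 64.7 and 80.2 CPM after knockdown, so that a single library carries its log2-fold-change of -0.16 (SE 0.122, limma adjusted p = 0.796). Nhp2 was at 204 and 215 against 221 and 210 CPM. Gar1 was at 83.4 and 82.8 against 90.5 and 85.6 CPM, and Terf2 at 47.6 and 44.5 against 49.4 and 50.3 CPM. The last 2 genes did not overlap between groups, but their log2-fold-changes were 0.08 (limma adjusted p = 0.864) and 0.11 (limma adjusted p = 0.815).

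Zscan4c (ENSMUSG00000054272, NCBIM37 chr7:11591071-11595896, plus strand) and Zscan4f (ENSMUSG00000070828, NCBIM37 chr7:11983264-11988090, plus strand) belong to a cluster of near-identical genes that a small share of ES cells express at a time. Zscan4c was at 23.8 and 21.7 CPM in control and at 33.5 and 29.4 CPM after knockdown. Zscan4f was at 22.1 and 19.2 against 30.5 and 29.5 CPM. For both genes each knockdown library lay above each control, as for 18.8% of all genes tested. The log2-fold-change was 0.45 for Zscan4c (SE 0.119, unadjusted p = 0.00876, limma adjusted p = 0.562) and 0.52 for Zscan4f (SE 0.117, unadjusted p = 0.00394, limma adjusted p = 0.528). Of 16 genes tested on the list of Zscan4 and the 2-cell state, 9 had an unadjusted p under 0.05, all upward, beside 7.45% of all genes, 0 passed after adjustment, and the median log2-fold-change was 0.41. Of the lists of shelterin, telomerase, CST, Rif1 partners, H3K9 methylation and other telomere genes, 1 gene in all had such a p, on the CST list and downward. The list of Zscan4 and the 2-cell state is not made of independent genes, since 94% of windows in Zscan4b and 93% in Zscan4e are repeated, and 23% to 52% in the Usp17l genes. The fibroblast markers summed to 52.3 and 49.7 CPM in control and to 49.9 and 76.7 CPM after knockdown, and 0 of the 7 tested had an unadjusted p under 0.05. The trophectoderm markers summed to 121 and 116 CPM in control and to 89.2 and 87.3 CPM after knockdown, with 2 of 8 tested at such a p, both downward. The primitive endoderm markers summed to 110 and 122 against 95.2 and 144 CPM, with 0 of 8 at such a p. The part of these cells in the Zscan4 values was not tested.

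The 2 genes are not independent measurements. Their coding sequences of 1521 bases differ at 6 positions, with a longest identical run of 407 bases, and reads were allowed to align at up to 10 places. Of 50-base windows along their exons, 84% in Zscan4c and 97% in Zscan4f occur elsewhere in the genome, beside 0% in Rif1, Terf1, Tert and Gar1. A stretch that holds 2 of the 6 differences (coding bases 1000 to 1089 of each, from the NCBIM37 annotation) shows how little tells their reads apart. The capitals mark the bases that differ.
Zscan4c: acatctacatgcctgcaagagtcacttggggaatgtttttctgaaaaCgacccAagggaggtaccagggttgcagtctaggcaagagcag
Zscan4f: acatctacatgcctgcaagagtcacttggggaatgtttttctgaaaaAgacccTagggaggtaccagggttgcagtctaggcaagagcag

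Their upstream sequences are as close, with 2 of 250 bases different between NCBIM37 chr7:11590821-11591070 and chr7:11983014-11983263, both on the plus strand. Neither of these 250-base windows holds a GC box or an octamer. They are printed with the differing bases in capitals.
Zscan4c: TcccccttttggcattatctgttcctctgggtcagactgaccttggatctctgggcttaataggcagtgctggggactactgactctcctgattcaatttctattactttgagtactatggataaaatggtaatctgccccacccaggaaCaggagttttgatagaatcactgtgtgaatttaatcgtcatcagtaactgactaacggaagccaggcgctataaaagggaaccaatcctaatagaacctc
Zscan4f: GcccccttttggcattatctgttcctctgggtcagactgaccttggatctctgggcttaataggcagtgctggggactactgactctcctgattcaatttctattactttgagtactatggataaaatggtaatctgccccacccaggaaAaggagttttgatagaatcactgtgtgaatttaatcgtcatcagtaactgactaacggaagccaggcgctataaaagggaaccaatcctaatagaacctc

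In the first 4 libraries both genes were close to no reads at all. Zscan4c had 3 reads in WT, 4 in OHT 3D, 1 in OHT 4D and 2 in Tc 2D, and Zscan4f had 0, 1, 2 and 0, beside 446 to 1299 in the shRNA libraries. All but 1 of these 8 counts are at or under a floor of 3 reads, the limit that a count of 0 allows, so no fold was taken between them. Summed over 6 Zscan4 genes, the level was 0.31, 0.77, 0.31 and 0.25 CPM in the first 4 libraries and 120, 110, 164 and 157 CPM in the shRNA libraries. The gap includes Zscan4d, of whose windows 47% are repeated, with 0 to 5 reads against 599 to 1667. In all, 20 genes were at or under 0.3 CPM in each of the first 4 libraries and above 10 CPM in each shRNA library, 5 of them Zscan4 genes, and 11 of the 20 had at most 10% repeated windows. No gene showed the reverse. The libraries of the 2 tables differ in treatment, normalization, sequencing instrument and, for 3 of the first 4, cell line, and these cannot be told apart. The study's methods give the same alignment and counting for all mRNA libraries. The median of the ZHBTc4 control libraries minus WT was 0.10 in log2 over 7218 genes with no repeated window and 0.68 over 121 genes with over 80% repeated, and its part in the Zscan4 gap was not tested.

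**Figure D4:**
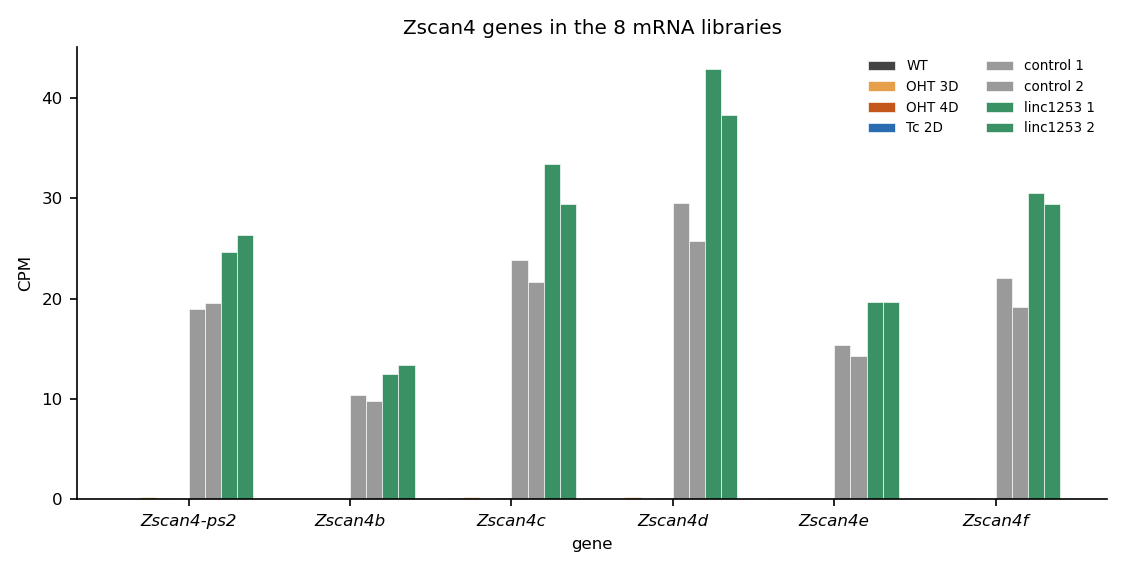
CPM (y axis, from 0) of 6 Zscan4 genes (x axis), with 1 bar for each of the 8 mRNA libraries. The shRNA libraries sum to between 110 and 164 CPM and the other 4 to between 0.25 and 0.77 CPM. For each gene both linc1253 bars are higher than both control bars, as for 18.8% of all genes tested. The 6 are near-identical genes and not independent measurements.

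Pontin binding was read as ChIP reads from 2500 bases before to 500 bases after each start site, over the GFP library and scaled by library size. Of all promoters, 21178 had reads of both kinds, and their median log2 ratio was 0.34, and 14.8% were above 1. Of the 8 genes with a ratio, 1, Tert, was above 1 in this window. Within 1000 bases of the start 3 others were above 1 and Tert was not, beside 26.3% of 20958 promoters and a median of 0.53. Tert had 108 Pontin reads and 15 GFP reads, a log2 ratio of 1.60 (0.82 to 2.49) at the 96.8th percentile of promoters. Rif1 had 82 and 30 reads, a log2 ratio of 0.21 (-0.41 to 0.86) at the 41.6th percentile. In this window Tert was thus high among promoters and Rif1 near the middle, with an interval that includes 0.

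The Rif1 value rests in part on 1 place in the GFP library, where 14 of its 30 reads lay between positions -2000 and -1750 from the start. Counting 1 read per position and strand left 81 Pontin and 17 GFP reads and a log2 ratio of 0.87, and within 1000 bases of the start the counts were 72 and 17, with 0.84. Tert was at 1.28 by the first of these and 0.81 by the second. Within 1000 bases Nop10 was at 1.47, Gar1 at 1.34 and Terf1 at 1.18, above Tert, so that the order of the genes depends on the window. In the longer window the other 6 genes ran from -0.21 (-0.74 to 0.33) for Nhp2 to 0.67 (-0.09 to 1.51) for Dkc1, with every interval including 0. Zscan4c had no read in either library and Zscan4f had 1 Pontin read. Only uniquely aligned reads were kept here. Repeated sequence was measured along exons and not in these ChIP windows, and its part in the 2 counts was not tested. With 1 library of each kind there is no replicate check.

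**Figure D5:**
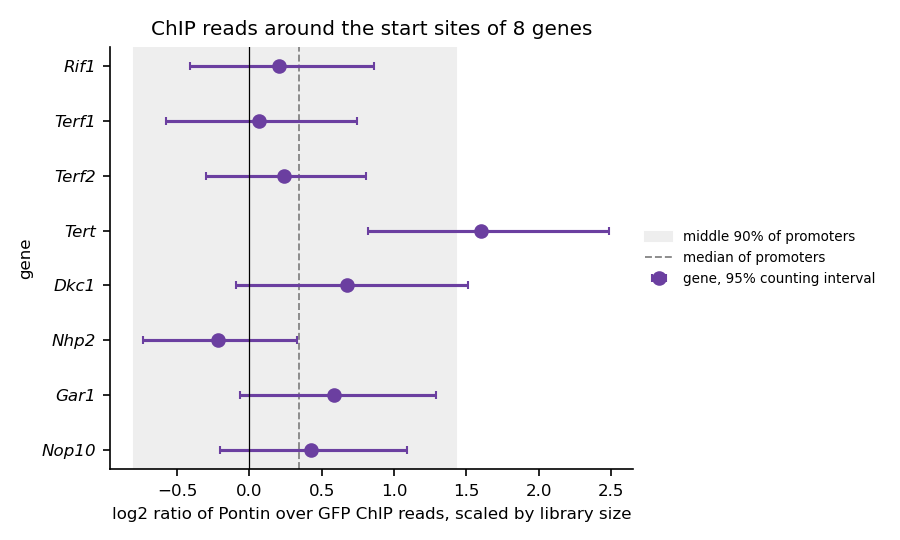
Log2 ratio of Pontin over GFP ChIP reads around the start site of each gene, scaled by library size, with 95% exact binomial intervals as bars. The dashed line is the median of promoters and the band their middle 90%. Tert lies at 1.60 and the other 7 between -0.21 and 0.67, beside a median of 0.34 over promoters.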

How the data were processed

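The authors trimmed poly(A) RNA-seq reads with cutadapt, aligned them to NCBIM37 with TopHat, allowing 2 mismatches and up to 10 locations, counted genes with HTSeq and deposited TMM-normalized CPM from edgeR. Reads were recovered from the CPM, which came out whole within 0.01 read for 100% of values, and gave depths and intervals. The deposited ChIP-seq files list reads with the mapping quality score of the alignment, at least 5 for GFP and 6 for Pontin. The Pontin library holds 40729076 reads and the GFP library 17185883. Duplicates were kept, and 11.4% of Pontin and 19.3% of GFP reads repeat a position and strand.

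The 10 genes and all lists were chosen with earlier results of these data known. Of 22713 identifiers 22337 had a symbol, and of 128 list symbols 122 were matched, 13 through an older symbol. For Pontin and Oct4 depletion, the 13449 genes that exceeded 1 CPM in any of the 4 libraries entered, with a pseudocount of 1 and no p. Counting intervals are exact Poisson, combined for a ratio, and ChIP intervals are exact binomial (Clopper-Pearson). For linc1253, limma 3.58.1 with trend was fitted to 2 against 2 libraries with Benjamini-Hochberg adjustment over 13407 genes, and the recovered reads were tested with edgeR 4.0.16 and with DESeq2 1.42.0. Alternatives were other pseudocounts, scalings and filters, a replicate block, each replicate left out, other ChIP windows and, added after seeing the data, centring on the median of genes of like exonic length. Named in the text are the 10 genes, at most 4 genes of each list with the largest values past the call at OHT 4D or Tc 2D, 4 of the 5 genes most like Rif1, the other not being reported here, and Ruvbl1 and Pou5f1 as checks of the labels. Tep1, Shld2, Tfap2c, Lum, Fap, Col3a1, Postn, Sox17, Zscan4b, Zscan4d, Zscan4e and the Usp17l genes were named after their values were seen. Mpp1 and Rmnd5b were named for their overlapping exons. Tools were tested on simulated data. Python 3.11.15, numpy 2.4.6, pandas 2.3.3, scipy 1.17.1, matplotlib 3.10.9 and R 4.3.3 were used.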

Additional observations from a re-analysis of the deposited data

Results flagged for a closer look

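Rif1 lay above WT on day 3 after OHT and below it on day 4, with log2-fold-changes of 0.39 in OHT 3D and -0.79 in OHT 4D. The OHT 3D value is within the call. It is smaller than the 0.46 between the control shRNA libraries and larger than the 0.31 between the linc1253 libraries. Measured from genes of like length the values were 0.31 and -0.48, both within the call. Each time is 1 library and both share the WT library, so the difference between the times was not tested.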

How the results depend on the processing

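Without replicates, the depletion values have no error beyond counting. The count of genes past the call at OHT 4D fell from 2 to 1 with 3 added to the CPM, and to 1 without the TMM factor, Rif1 remaining in both. At an absolute log2-fold-change above 1 it was 0 at OHT 4D and 2 at Tc 2D, with no share of all genes taken at that threshold to set beside these counts. Rif1 at Tc 2D was at -0.14 without the TMM factor and at -0.71 and -0.52 against the ZHBTc4 control libraries as deposited and on one median-ratio scale. Centred on genes of like length, a choice made after seeing the data, Rif1 was at 0.31, -0.48, -0.83 and -0.72 in the comparisons OHT 3D, OHT 4D, OHT 4D against OHT 3D, and Tc 2D, with 1 gene past the call at OHT 4D. Of 198 such values for the other 9 genes, 159 stayed within their counting interval and 39 moved out of it. Causes were not tested beyond these settings.

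For linc1253, the libraries share only a replicate number. The deviations of same-numbered libraries from their group means correlated at 0.673 over genes, with only 2 such pairs. With the number as a replicate block, limma called 1960 genes and 3 of the 10, Zscan4f (adjusted p = 0.00013), Zscan4c (adjusted p = 0.000398) and Dkc1 (adjusted p = 0.0139). Without the block it called 0 genes, and DESeq2 called 50. Leaving out each library in turn, Rif1 ran from -0.27 to 0.20 in log2, Tert from -0.12 to 0.060, Dkc1 from 0.065 to 0.36, and 0 of the 10 genes were called each time, the lone library being assumed to vary like the other group. Over the alternatives without the block, the adjusted p of Zscan4c ran from 0.465 to 0.967 and that of Zscan4f from 0.186 to 0.839. The ChIP ratio of Rif1 was 0.87 with 1 read per position. Low counts limit Zscan4 in the first table. In the longer window 15 to 46 GFP reads limit each ChIP ratio, and within 1000 bases of the start 11 to 26 do.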
